A study of Mus musculus with 59 samples.

Results

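Dbp, Tef, Hlf, Nfil3, Nr1d1, Nr1d2, Bhlhe40 and Bhlhe41 encode transcription factors that carry the time signal of the circadian clock to other genes. They were chosen by gene symbol, with earlier results of these data known. All 8 were found among the 47643 gene symbols of a table of transcript abundance from mouse muscle. Abundance is given in TPM, a relative unit which scales every library to the same total and takes account of transcript length.

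The circadian clock is a feedback loop within each cell. The factors BMAL1 (the product of Arntl) and CLOCK bind E-box sequences and switch on their own repressors, the Per and Cry genes, together with output factors. DBP, TEF and HLF are PAR bZIP activators that bind a sequence called the D-box, and NFIL3 (E4BP4) is a repressor that competes for the same sequence. The REV-ERB nuclear receptors, encoded by Nr1d1 and Nr1d2, repress genes with ROR response elements, Arntl and Nfil3 among them, and the DEC proteins, encoded by Bhlhe40 (DEC1) and Bhlhe41 (DEC2), repress at E-boxes. In skeletal muscle, as in other tissues, the messenger RNAs of most of these genes rise and fall over the day.

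RNA was sequenced from muscles of female NCI Ath/nude mice aged 4 months, an athymic strain that accepts human tumor grafts. Every mouse carried a patient-derived melanoma xenograft, either a cachectic melanoma that wastes muscle or a non-cachectic melanoma, so no group was free of tumor and each class of melanoma was a single xenograft. Diaphragm libraries came from mice given intraperitoneal injections of rFibcd1, a recombinant form of the secreted muscle protein Fibcd1, or mock injections of vehicle. They numbered 10 for cachectic mock, 10 for cachectic rFibcd1, 9 for non-cachectic mock and 10 for non-cachectic rFibcd1. The tibialis anterior (TA, a fast limb muscle) and the soleus (SOL, a slow limb muscle) had 5 libraries for each melanoma, 59 libraries in all, and the labels name no injection for them. The hour of tissue collection is not given in the sources used here. Libraries are named by the number in their column of the table, which could not be tied to the replicate numbers of the labels, and nothing says that equal numbers in different muscles mark the same mouse.

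Markers fitted the labelled muscles. The summed TPM of 5 slow-fiber genes was 18044 to 28781 in the soleus and 29.2 to 65.2 in the TA. Between 16436 and 19456 genes were above 0 in a library, and sequencing depth is unknown. Libraries also fell into 2 states by the pseudogene Pcna-ps2, which was at 5.60 TPM or more in 36 libraries and at 0.428 or less in 23. In the limb muscles the high state held all cachectic and no non-cachectic libraries, so state and melanoma cannot be told apart there. In the diaphragm it held 9 of 10 cachectic mock, 8 of 10 cachectic rFibcd1, 3 of 9 non-cachectic mock and 6 of 10 non-cachectic rFibcd1 libraries. The part of the state in the results was not tested in the limb muscles, and for the diaphragm its values stand beside the results. These are bulk tissues, in which fewer cells of a type and less RNA per cell cannot be told apart.

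In the GENCODE annotation of GRCm38, the genome version that the labels name as mm10, Dbp lies on chromosome 7 (45705088 to 45710203), Tef on 15 (81802421 to 81826863), Hlf on 11 (90336536 to 90390895) and Nfil3 on 13 (52967209 to 52981073). Nr1d1 lies on chromosome 11 (98767932 to 98775333), Nr1d2 on 14 (18204054 to 18239127), Bhlhe40 on 6 (108660629 to 108666925) and Bhlhe41 on 6 (145858243 to 145865558). Dbp and Nr1d1 share exon sequence with an expressed gene on the opposite strand. Dbp shares 539 exon bases, 18.0% of its own, with Sphk2, and Nr1d1 shares 263, 8.55% of its own, with Thra. Mean TPM over all libraries was 10.1 for Sphk2 and 35.8 for Thra. The labels name a stranded kit and the study's methods an unstranded one, so the sources do not settle whether reads of these shared stretches were assigned by strand. Tef, Bhlhe40 and Bhlhe41 overlap antisense or unconfirmed transcripts that were at a mean of 0.597 TPM or less.

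RefSeq promoters (GRCm38.p6, 250 bases before to 50 after a start) were at hand for 7 of the 8 genes, Tef with 2, and Bhlhe40 had none. They were searched on both strands for the binding sequences of the families above. The E-box was searched as CACGTG, the D-box as TTATGTAA or TTACGTAA, and the core of the ROR response element as AGGTCA. The matches are shown because they are the elements through which clock factors are known to act on one another, and capitals mark the motif.

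Tef promoter 1, E-box, chr15:81802534-81802563, plus strand: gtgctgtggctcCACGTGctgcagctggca
Tef promoter 2, E-box, chr15:81811264-81811293, plus strand: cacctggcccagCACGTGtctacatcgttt
Bhlhe41 promoter, E-box, chr6:145865556-145865585, minus strand: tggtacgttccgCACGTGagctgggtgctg
Nfil3 promoter, ROR core, chr13:52981034-52981063, minus strand: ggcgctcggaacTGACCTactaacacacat
Nr1d2 promoter, ROR core, chr14:18239166-18239195, minus strand: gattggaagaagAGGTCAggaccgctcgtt

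Both Tef promoters and that of Bhlhe41 held the E-box, and those of Nfil3 and Nr1d2 the ROR core, which reads TGACCT on the other strand. No D-box letters were found in these windows. Of 32851 promoters of the same length, 7.15% held the E-box, 1.056% the D-box and 16.26% the ROR core. These are matches of letters and were not tested for binding.

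Levels of the 8 genes spread over a wide range in every group (see the plot of TPM by library). In the non-cachectic mock diaphragm, Dbp was the most abundant, with a lowest, median and highest TPM of 66.6, 119.6 and 173. Nr1d1 came next with a median of 84.9, followed by Tef at 77.5, Bhlhe40 at 66.8 and Nr1d2 at 65.1. The ranges of these neighbors in the order overlapped. Nfil3 at a median of 10.9, Bhlhe41 at 8.46 and Hlf at 7.35 formed a lower tier, with ranges that overlapped among themselves and lay wholly below those of the other 5 genes. The soleus of non-cachectic mice had the highest Dbp median of the 8 groups, 162, and the non-cachectic rFibcd1 diaphragm the lowest, 32.3. The spread within groups differed among the genes. In the cachectic mock diaphragm, Dbp ran from 8.80 to 123.5 TPM, whereas Tef ran from 48.4 to 104.

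**Figure D1:**
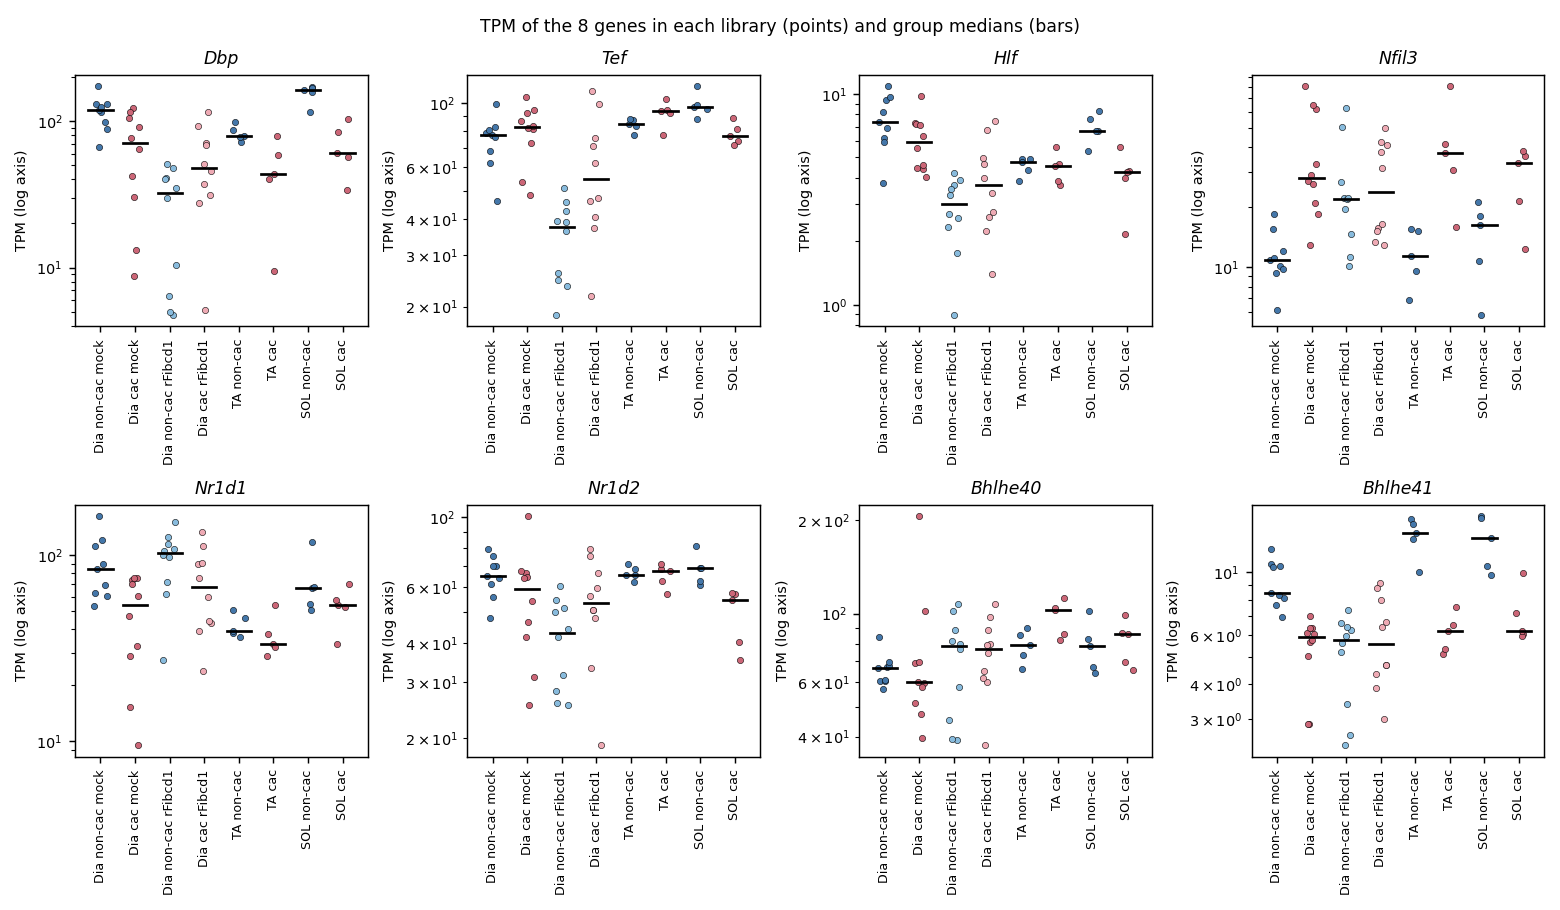
TPM (log axis) of the 8 clock output genes in every library (points), with the group median as a bar, for 4 diaphragm (Dia), 2 TA and 2 SOL groups (cac, cachectic; non-cac, non-cachectic). Dbp in the non-cachectic rFibcd1 diaphragm (4.75 to 51.3) lies wholly below the non-cachectic mock diaphragm (66.6 to 173), and the highest Nfil3 values lie in cachectic libraries of the diaphragm (80.8) and TA (80.7).

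Between muscles of non-cachectic mice, which of these genes passed the test depended in part on how TPM was scaled. Under limma on log2(TPM + 1), 3 of 8 differed between mock diaphragm and TA, where 72.5% of all genes tested were called at an adjusted p under 0.05. Hlf was higher in the diaphragm by a log2 value of 0.59 ± 0.17 (SE, adjusted p = 0.00325), Nr1d1 by 1.01 ± 0.34 (adjusted p = 0.0089), and Bhlhe41 was lower, with a log2 fold change of -0.50 ± 0.16 (adjusted p = 0.00478). The median of all genes was itself 0.44 higher in the diaphragm. After median-ratio scaling, which removes that shift, the Hlf difference was 0.09 and the Nr1d1 difference 0.44, neither called, and 4 of the 8 genes were called lower in the diaphragm. These were Bhlhe41 (-1.05, adjusted p = 2.3e-06), Bhlhe40 (-0.83, adjusted p = 0.00164), Tef (-0.77, adjusted p = 0.000129) and Nr1d2 (-0.61, adjusted p = 0.00848). Against the soleus, Tef (-0.42 ± 0.14, adjusted p = 0.0153) and Bhlhe41 (-0.44 ± 0.16, adjusted p = 0.0239) were lower in the diaphragm, 2 of 8 against 38.8% of all genes. After scaling both values were nearly as large, -0.37 (adjusted p = 0.0687) and -0.40 (adjusted p = 0.059), though neither was called. Between TA and soleus 1 of 8 was called, against 69.5% of all genes. This was Hlf, with a log2 fold change of -0.50 ± 0.20 (adjusted p = 0.024), and after scaling its difference turned to 0.03. Scaling brought calls of higher levels in the TA for Bhlhe41 (0.65, adjusted p = 0.00539), Bhlhe40 (0.63, adjusted p = 0.0372) and Nr1d2 (0.59, adjusted p = 0.0324). With the column number as a block, Dbp (-0.89, adjusted p = 0.0233) and Nr1d1 (-0.69, adjusted p = 0.0452) were called as well as Hlf, with array weights Dbp, Tef, Nr1d1 and Hlf, and with the Dunn test none.

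The first question was how the output genes respond to the cachectic melanoma. In all 3 muscles of mice without rFibcd1, Bhlhe41 fell and Dbp had lower levels, and Nfil3 had higher levels. In the mock diaphragm, 3 of 8 genes were called (Nfil3 higher, Nr1d1 and Bhlhe41 lower), against 33.5% of all genes tested. In the TA, 4 of 8 were called (Nfil3 and Bhlhe40 higher, Dbp and Bhlhe41 lower), against 60.2%. In the soleus, 5 of 8 were called, all of them lower (Dbp, Tef, Hlf, Nr1d2 and Bhlhe41), against 25.1%. With both directions counted, the share of the 8 genes called was near that of all genes in the diaphragm and TA. Most of all genes called there were higher. In the mock diaphragm 358 of 13426 genes tested were called lower, and in the TA 420 of 11105, beside 2 of the 8 genes in each. In the soleus 901 of 11957 were called lower. The median log2 fold change of all genes was 0.20 in the diaphragm, 0.41 in the TA and 0.09 in the soleus. The mitochondrial share of TPM also moved with the melanoma. It was 32.9% to 41.6% in cachectic and 41.9% to 51.9% in non-cachectic mock diaphragm, 25.1% to 45.6% and 47.3% to 51.7% in the TA, and 24.1% to 34.6% and 38.96% to 44.04% in the soleus. These ranges did not overlap in any of the 3 muscles, and the part of this share in the values of the 8 genes was not tested. As the hour of collection is not given and these genes follow the day, a difference in hour could not be separated from melanoma or from rFibcd1. The plot of fold changes shows the 8 genes side by side.

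Of the PAR bZIP activators, Dbp, which drives many D-box genes, was lower with the cachectic melanoma in each muscle. In the soleus its TPM was 84.4, 60.6, 33.999, 103 and 56.5 in cachectic libraries 6, 7, 8, 9 and 10, and 157, 115, 171, 162 and 168 in non-cachectic libraries 61 to 65. The groups did not overlap, and Dbp fell by 1.26 ± 0.25 on the log2 scale (adjusted p = 0.00418). In the TA the cachectic libraries 6 to 10 were at 58.4, 43.6, 9.53, 78.5 and 40.01, and the non-cachectic libraries at 86.8, 71.4, 78.6, 77.6 and 98.1. Here 1 cachectic library, number 9, lay within the non-cachectic range, and number 8 lay far below the rest. The TA fold change was -1.09 ± 0.42 (adjusted p = 0.0403) and -0.62 without library 8 (adjusted p = 0.011). The call was lost (adjusted p 0.0506 to 0.0764) on leaving out any 1 of TA libraries 7, 10, 61, 62, 63, 64 and 65, and with no filter on low genes (adjusted p = 0.0831). In the mock diaphragm Dbp ran from 8.80 through a median of 70.6 to 123.5 in cachectic and from 66.6 through 119.6 to 173 in non-cachectic libraries. The groups overlapped widely, with numbers 34 and 8 at the bottom at 8.80 and 13.2, and the fold change of -1.14 ± 0.50 was not called (adjusted p = 0.0745). It was called when diaphragm library 9 (adjusted p = 0.0497) or library 17 (adjusted p = 0.0494) was left out, and in a fit of these 2 groups alone (adjusted p = 0.0293). Sphk2, which shares exon bases with Dbp, moved the other way, with log2 fold changes of 0.66 in the diaphragm, 0.86 in the TA and 0.69 in the soleus, each called. Its part in the Dbp values was not tested.

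The other activators moved less. In the soleus, Tef was at 73.7, 81.2, 76.9, 88.9 and 71.7 TPM in cachectic libraries 6 to 10 and at 95.6, 87.9, 114, 96.6 and 98.0 in the non-cachectic ones. The groups crossed only at cachectic library 9 and non-cachectic library 62, and Tef fell by 0.32 ± 0.09 on the log2 scale (adjusted p = 0.0206). Without soleus library 63 that call was lost (adjusted p = 0.0553). Hlf in the soleus was at 4.29, 4.00, 2.17, 4.29 and 5.59 TPM in cachectic and 6.66, 5.35, 8.28, 6.68 and 7.65 in non-cachectic libraries. Hlf fell by 0.67 ± 0.18 (adjusted p = 0.0178), with the groups crossing at libraries 10 and 62. With the Dunn test of the study's methods, soleus Tef, Hlf and Bhlhe41 were not called (adjusted p = 0.0641 for each), whereas Dbp and Nr1d2 were (adjusted p = 0.0451 for both). Neither Tef nor Hlf was called in the mock diaphragm, where their log2 fold changes were 0.09 ± 0.21 and -0.28 ± 0.20, or in the TA, where they were 0.13 ± 0.10 and -0.03 ± 0.12. Without TA library 8, Tef was called higher there, at 0.19 (adjusted p = 0.0131). After median-ratio scaling, TA Hlf was called lower (-0.43, adjusted p = 0.0411) and the TA Tef value turned to -0.37 (adjusted p = 0.13).

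Nfil3, the repressor at the D-box, had the largest rise of the 8 genes in the diaphragm and TA. In the mock diaphragm its lowest, median and highest TPM were 12.9, 28.02 and 80.8 in cachectic and 6.09, 10.9 and 18.4 in non-cachectic libraries. Of the cachectic libraries only number 22 lay within the non-cachectic range, and numbers 8, 20 and 34 stood highest. The rise was 1.46 ± 0.32 on the log2 scale (adjusted p = 0.000991). In the TA Nfil3 was at 15.9, 41.5, 80.7, 37.4 and 30.8 in cachectic libraries 6 to 10 and at 6.87, 11.4, 15.1, 9.57 and 15.6 in libraries 61 to 65. The groups did not overlap, and the rise was 1.61 ± 0.35 (adjusted p = 0.00432). In the soleus the values were 21.6, 33.3, 35.9, 12.3 and 38.3 against 5.77, 10.8, 21.1, 16.2 and 18.0. Cachectic library 9 lay inside the non-cachectic range, and the difference of 0.94 ± 0.36 was not called (adjusted p = 0.0749), though it was without library 9 (1.20, adjusted p = 0.0212). Since DBP and NFIL3 are an activator and a repressor at the same sequence, their ratio was also computed. The log2 ratio of Dbp to Nfil3 was 3.24 ± 0.65 (SD, n = 9) in non-cachectic and 0.64 ± 1.94 (SD, n = 10) in cachectic mock diaphragm. It was 2.76 ± 0.45 and 0.07 ± 1.82 in the TA and 3.44 ± 0.63 and 1.24 ± 1.20 in the soleus (SD, n = 5 each).

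Of the REV-ERB genes, Nr1d1 was called in the diaphragm and Nr1d2 in the soleus. Nr1d1 in the mock diaphragm had a lowest, median and highest TPM of 9.51, 53.7 and 75.7 in cachectic and 53.4, 84.9 and 162.5 in non-cachectic libraries. The ranges overlapped between 53.4 and 75.7, and 5 cachectic libraries (34, 8, 35, 10 and 22) lay below every non-cachectic one. Nr1d1 fell by 1.05 ± 0.34 on the log2 scale (adjusted p = 0.0178). Nr1d1 stayed called there without each library in turn and in 7 of 9 other settings, against 8 of 9 for Nfil3 and Bhlhe41. It was not called in the TA, at 33.5, 37.8, 53.8, 32.1 and 28.9 against 50.8, 46.2, 36.6, 38.4 and 38.99 TPM (log2 fold change -0.20 ± 0.16, adjusted p = 0.288). Without TA library 8, the highest of the cachectic set, it was called at -0.34 (adjusted p = 0.0182), and after median-ratio scaling at -0.69 (adjusted p = 0.0016). In the soleus Nr1d1 was not called either (-0.38 ± 0.23, adjusted p = 0.248). Nr1d2 in the soleus was at 40.3, 54.6, 35.4, 57.1 and 57.8 TPM in cachectic and 61.3, 69.0, 62.7, 69.2 and 81.3 in non-cachectic libraries, with no overlap, and fell by 0.50 ± 0.14 (adjusted p = 0.0266). Leaving out soleus library 62, 64 or 65 ended that call (adjusted p 0.0548 to 0.0637). In the diaphragm and TA the Nr1d2 log2 fold changes were -0.30 ± 0.22 and -0.03 ± 0.09, neither called. After median-ratio scaling TA Nr1d2 was called lower, at -0.53 (adjusted p = 0.0324).

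Of the DEC genes, Bhlhe41 fell in all 3 muscles under limma. In the TA it was at 7.54, 5.14, 5.35, 6.51 and 6.20 TPM in cachectic and 15.5, 10.1, 14.8, 13.1 and 13.8 in non-cachectic libraries, with no overlap, a fall of 1.01 ± 0.14 on the log2 scale (adjusted p = 0.000445). In the soleus it was at 6.06, 5.94, 6.19, 9.91 and 7.20 against 15.8, 9.75, 15.6, 10.5 and 13.2. The soleus groups crossed only at libraries 9 and 62, and the fall was 0.79 ± 0.16 (adjusted p = 0.00539). In the mock diaphragm its range was 2.88 to 7.00 with a median of 5.89 in cachectic and 6.93 to 12.1 with a median of 8.46 in non-cachectic libraries. Only library 6 reached into the non-cachectic range, and Bhlhe41 fell by 0.70 ± 0.18 (adjusted p = 0.00329). Bhlhe40, by contrast, had log2 fold changes of 0.05 ± 0.22 in the diaphragm and 0.05 ± 0.14 in the soleus. In the TA it was at 103, 104, 86.0, 112.4 and 81.8 TPM in cachectic and 79.0, 66.2, 85.2, 89.8 and 73.4 in non-cachectic libraries. Cachectic libraries 8 and 10 lay within the non-cachectic range, and the gene was called at 0.30 ± 0.12 (adjusted p = 0.048), below the median shift of all genes there, and after median-ratio scaling the value turned to -0.19. That TA call was also lost on leaving out library 6, 7, 9, 61, 62, 63 or 65 (adjusted p 0.0629 to 0.119).

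**Figure D2:**
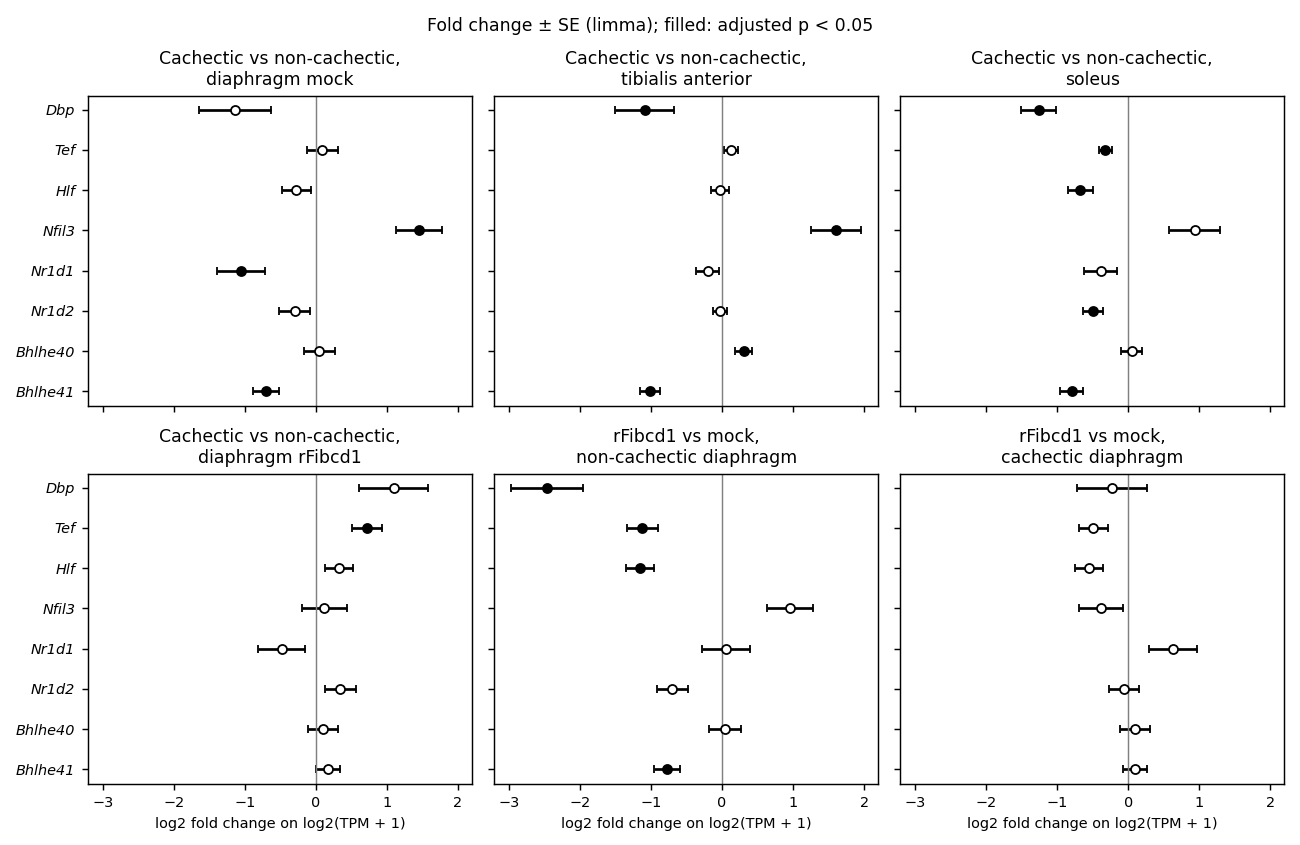
Log2 fold change on log2(TPM + 1) with its SE from limma for the 8 genes in 6 comparisons, filled where the adjusted p was under 0.05. Bhlhe41 is filled and below 0 for the cachectic melanoma in mock diaphragm, TA and soleus, and Dbp, Tef, Hlf and Bhlhe41 are filled and below 0 for rFibcd1 in the non-cachectic diaphragm.

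Whether the response to melanoma differed from muscle to muscle was asked in 1 fit of the groups without rFibcd1. None of the 8 genes was called for diaphragm against TA, diaphragm against soleus or TA against soleus, where limma called 5.04%, 2.52% and 20.4% of all genes tested. The lowest adjusted p was that of Hlf for TA against soleus, with a difference of 0.64 ± 0.28 (adjusted p = 0.0914). With the column number as a block, an alternative added after the data were seen, Hlf (adjusted p = 0.0165) and Tef (difference 0.45, adjusted p = 0.0342) were called there. Library state coincided with melanoma in the limb muscles. In the diaphragm, with the state as a term, Nfil3 (1.37, adjusted p = 0.00898), Nr1d1 (-1.22, adjusted p = 0.0252) and Bhlhe41 (-0.65, adjusted p = 0.0237) stayed called. Within high-state libraries alone, 9 against 3, their fold changes were 1.44, -1.55 and -0.48, none called (adjusted p 0.0726 to 0.243).

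In the rFibcd1 groups, the cachectic against the non-cachectic diaphragm gave 1 call of 8, against 9.11% of all genes. Tef rose by 0.72 ± 0.21 on the log2 scale (adjusted p = 0.0248), from a lowest, median and highest TPM of 18.7, 37.6 and 50.9 to 21.8, 54.7 and 109.6, with wide overlap. The Tef call was lost without library 3, 4, 5 or 58 (adjusted p 0.0555 to 0.0628), after median-ratio scaling (adjusted p = 0.0613), with array weights, with the Dunn test and in the fit of these 2 groups alone. Dbp had a log2 fold change of 1.09 ± 0.49 (adjusted p = 0.153), against -1.14 in the mock groups. Without library 17, the lowest in Dbp of the cachectic rFibcd1 group, it was called at 1.41 (adjusted p = 0.0449). Nfil3 had a log2 fold change of 0.12 ± 0.31, against 1.46 in the mock groups.

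The second question was what rFibcd1 did to these genes. In the cachectic diaphragm none of the 8 was called, against 0.0447% of all genes (6 genes by limma, and 1412 at an unadjusted p under 0.05). The fold changes ran from -0.55 ± 0.20 for Hlf to 0.63 ± 0.33 for Nr1d1. In the non-cachectic diaphragm, 4 of 8 were called, all lower with rFibcd1. They were the 3 PAR bZIP activators and Bhlhe41. Of all 13426 genes tested, 0.417% were called, 47 of them higher and 9 lower, these 4 included. This comparison and that of the melanomas in mock diaphragm share the 9 non-cachectic mock libraries, so their values are not independent. Dbp ran from 4.75 through a median of 32.3 to 51.3 TPM with rFibcd1 and from 66.6 through 119.6 to 173 with mock injection. No rFibcd1 library reached the lowest mock library, and Dbp fell by 2.46 ± 0.50 on the log2 scale (adjusted p = 0.00926). Sphk2, which overlaps it, rose by 0.56 ± 0.10 (adjusted p = 0.00161), and its part in the Dbp value was not tested. Hlf had a lowest, median and highest TPM of 0.895, 3.00 and 4.24 against 3.79, 7.35 and 10.9. It fell by 1.15 ± 0.20 (adjusted p = 0.00161), and the groups crossed between 3.79 and 4.24. Tef stood at 18.7, 37.6 and 50.9 against 46.0, 77.5 and 98.7 and fell by 1.12 ± 0.21 (adjusted p = 0.00437), with 1 mock library, number 66, inside the rFibcd1 range. Bhlhe41 stood at 2.43, 5.76 and 7.37 against 6.93, 8.46 and 12.1 and fell by 0.77 ± 0.18 (adjusted p = 0.0319).

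The remaining genes were not called for rFibcd1 in the non-cachectic diaphragm. Nfil3 was at 10.1, 22.02 and 62.9 against 6.09, 10.9 and 18.4 TPM (0.96 ± 0.32, adjusted p = 0.216), and Nr1d2 at 25.5, 43.1 and 60.6 against 47.8, 65.1 and 79.4 (-0.70 ± 0.22, adjusted p = 0.183). Both were called in a fit of these 2 groups alone (adjusted p = 0.0278 for Nfil3 and 0.011 for Nr1d2) and with array weights. Nr1d1 had overlapping ranges of 27.5 to 150.4 and 53.4 to 162.5 (0.06 ± 0.34), and Bhlhe40 had a fold change of 0.04 ± 0.22. Dbp, Tef and Hlf stayed called without each diaphragm library in turn. With the Dunn test, Dbp (adjusted p = 0.0298) and Hlf (adjusted p = 0.0451) were called, and Tef (adjusted p = 0.109) and Bhlhe41 (adjusted p = 0.0858) were not. Bhlhe41 lost its call without any 1 of libraries 47, 49, 58, 61, 62, 63, 64, 65 and 67 (adjusted p 0.0527 to 0.0933). With library state as a term, Dbp (-2.39, adjusted p = 0.0215), Tef (-1.08, adjusted p = 0.0123) and Hlf (-1.18, adjusted p = 0.0029) stayed called and Bhlhe41 did not (-0.75, adjusted p = 0.072). Within high-state libraries alone, 6 against 3, the fold changes of these 4 genes were -2.59, -1.05, -0.91 and -0.59, none called.

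Within the non-cachectic rFibcd1 group the libraries fell into 2 sets. Dbp was at 4.75 to 10.4 TPM in libraries 47, 49, 56 and 58 and at 29.7 to 51.3 in the other 6, with none between. The same 4 libraries were the lowest of the group in Tef (18.7 to 26.0 against 36.3 to 50.9), in Nr1d2 (25.5 to 31.6 against 41.8 to 60.6) and in Nr1d1 (27.5 to 97.6 against 100.7 to 150.4). They were the 4 highest in Arntl (27.3 to 33.5 against 13.3 to 18.3). In the other genes the sets overlapped, with Hlf at 0.895 to 3.31 against 2.59 to 4.24, Bhlhe41 at 2.43 to 5.60 against 5.22 to 7.37, Bhlhe40 at 39.03 to 88.5 against 57.8 to 107.5 and Nfil3 at 19.6 to 62.9 against 10.1 to 26.6. Both sets held high-state and low-state libraries. All 6 libraries above the gap were still below every mock library in Dbp. The column numbers of the non-cachectic groups, 46 to 60 for rFibcd1 and 61 to 70 for mock, did not mix.

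The interaction of melanoma and rFibcd1, which asks whether the effect of rFibcd1 differed between cachectic and non-cachectic diaphragm, called none of the 8 genes and 0.0223% of all genes (limma, 3 genes, with 1180 at an unadjusted p under 0.05). Dbp had the largest estimate, 2.23 ± 0.70 (adjusted p = 0.483), and Nfil3 was at -1.34 ± 0.45 (adjusted p = 0.507). With array weights, Nfil3 (-1.86, adjusted p = 0.0403) and Bhlhe41 (1.12, adjusted p = 0.0266) were called. The effect of rFibcd1 in the non-cachectic group was therefore not shown to differ from that in the cachectic group.

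Other genes of the clock were read from lists of its parts. For rFibcd1 in the non-cachectic diaphragm, limma called 0.417% of all genes, 47 of them higher and 9 lower. All 3 core activators rose there, Arntl by 2.25 ± 0.43 on the log2 scale (adjusted p = 0.00437), Npas2 by 1.34 ± 0.22 (adjusted p = 0.00145) and Clock by 1.03 ± 0.18 (adjusted p = 0.00161). Of the 6 core repressors 3 fell there, Ciart, Per2 and Per3, and none of the 7 other clock-controlled genes was called. The Ciart call was lost without any 1 of libraries 47, 49, 56, 58, 59 and 62 to 65 (adjusted p 0.0546 to 0.0764). For the cachectic melanoma without rFibcd1, Arntl rose in the TA (1.56 ± 0.48, adjusted p = 0.0178) and in the soleus (0.98 ± 0.21, adjusted p = 0.00692) and was at 0.41 ± 0.43 in the mock diaphragm. Without TA library 8 the TA value of Arntl was 1.01 ± 0.20 (adjusted p = 0.0013), still called. Clock rose in the TA by 0.64 ± 0.20 (adjusted p = 0.0177), or by 0.44 ± 0.09 without that library. In the rFibcd1 groups the cachectic diaphragm had lower Arntl (-1.38 ± 0.42, adjusted p = 0.0321) and Npas2 (-0.66 ± 0.21, adjusted p = 0.0422), and of the 6 core repressors Per2 (1.32), Per3 (0.91) and Cry2 (0.70) rose there, against 9.11% of all genes called. Without any 1 of libraries 4, 5, 47, 49 and 58 the calls of Arntl, Npas2 and Per3 were all lost (adjusted p 0.0532 to 0.0933), and leaving out library 3, 11, 14, 16, 56 or 59 ended 1 or 2 of them, whereas Per2 and Cry2 stayed called without each library in turn. Of the 6 core repressors, 1 rose in the mock diaphragm (Cry1, by 0.60), where 33.5% of all genes were called. Cry2 was not called there (adjusted p = 0.0569), but was without library 2, 3, 14, 17 or 65 (adjusted p 0.0417 to 0.0496). Of these only library 65 is in the groups compared. In the TA 1 rose (Cry1, by 0.75) and Ciart fell by 0.66, against 60.2% of all genes called. In the soleus, where 25.1% of all genes were called, Cry1 (0.63) and Cry2 (0.42) rose while Per3 fell by 0.74 and Ciart by 1.16. The TA call of Ciart was lost without any 1 of TA libraries 6, 7, 8, 10 and 62 to 65 (adjusted p 0.0552 to 0.114), and the soleus call of Cry2 without library 61 or 62 (adjusted p 0.0523 and 0.0515). Of 8 glucocorticoid targets, which also respond to the hormone that follows the day, 6 rose in the mock diaphragm, 6 in the TA and 5 in the soleus, where 30.9%, 56.4% and 17.5% of all genes tested rose. Fkbp5, which encodes a co-chaperone of the glucocorticoid receptor, rose by 2.74, 3.13 and 1.78 in these muscles, and Ddit4, an inhibitor of mTORC1 signaling, by 2.17, 2.69 and 1.94. Their part in the values of the 8 genes was not tested. For rFibcd1 in the non-cachectic diaphragm, none of these glucocorticoid targets was called, with a median log2 fold change of 0.07 beside 0.15 for all genes.

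Marker lists of other cell types were read in the same comparisons, and several of their counts lay near the share of all genes. Of 6 macrophage genes, 3 rose with the cachectic melanoma in the mock diaphragm, where their summed TPM was 188 to 654 in cachectic and 109.5 to 266 in non-cachectic libraries, and 5 of the 5 tested rose in the TA (26.7 to 173 against 13.5 to 33.6). In the soleus 1 of 6 rose. Of all genes tested, 30.9% rose in the diaphragm, 56.4% in the TA and 17.5% in the soleus. Of 5 endothelial genes, 3 rose in the diaphragm, 3 rose and 1 fell in the TA, and 1 rose and 1 fell in the soleus. Of 6 adipocyte genes, 1 rose in the diaphragm, 1 of the 4 tested rose in the TA and none was called in the soleus. None of the 5 mesothelial, 5 liver, 4 red cell and 5 B cell genes was called in the diaphragm. In the TA the B cell genes summed to 4.73 to 29.8 TPM in cachectic and 42.5 to 198 in non-cachectic libraries. Of the 5 slow-fiber genes, 4 rose in the TA and Myl3 fell by 2.74, and their summed TPM was 29.2 to 46.1 in cachectic and 38.6 to 65.2 in non-cachectic TA libraries. None of the macrophage, endothelial, adipocyte, mesothelial, liver, red cell or B cell genes was called for rFibcd1 in the non-cachectic diaphragm. Only 0.417% of all genes were called there, so lists this small would hold few calls in any case. The 5 liver genes, however, summed to 9071 TPM in non-cachectic mock library 64, with the next of that group at 739, and to 4.93 to 549 with rFibcd1. Without library 64, Dbp (-2.43, adjusted p = 0.022), Tef (-1.10, adjusted p = 0.0129) and Hlf (-1.11, adjusted p = 0.00592) stayed called for rFibcd1, and Bhlhe41 was at -0.79 (adjusted p = 0.0527). The 5 melanocyte genes summed to at most 2.40 TPM in any library. The part of these cell types in the values of the 8 genes was not tested.

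The third question was whether the 8 genes moved together among libraries of a group. Over 39 diaphragm libraries centered on their group means, 20 of 28 pairs had a correlation with an adjusted permutation p under 0.05, of which 15 were positive and 5 negative. All 5 negative relations were those of Nfil3, with Bhlhe41, Nr1d1, Dbp, Nr1d2 and Hlf. The tightest pair was Tef and Nr1d2, with a Pearson's r of 0.84 (adjusted permutation p = 3.5e-05, from the smallest p that 100000 permutations can give) and a Spearman's rho of 0.83 (adjusted permutation p = 5.6e-05). Leaving out the 2 libraries farthest from the median of Tef gave r = 0.77. Dbp with Bhlhe41 had r = 0.82 and rho = 0.81, with the same adjusted permutation p values as the pair before, and r = 0.82 without 2 libraries. Nfil3 with Bhlhe41 had r = -0.70 and rho = -0.69 (adjusted permutation p = 5.6e-05 for both), and r = -0.62 without 2 libraries. Bhlhe40 stood apart, since only its relations with Nr1d2 (r = 0.46, rho = 0.49, adjusted permutation p = 0.0149 and 0.00877) and Nr1d1 (r = 0.41, rho = 0.44, adjusted permutation p = 0.0356 and 0.0101) passed by Pearson's r. Their r was 0.57 and 0.53 without 2 libraries. The pooled values include the group that fell into 2 sets. Without it, 18 of 28 pairs passed, with r = 0.80 for Tef and Nr1d2, 0.77 for Dbp and Bhlhe41 and -0.73 for Nfil3 and Bhlhe41. None of 28 pairs passed over the 10 TA or the 10 soleus libraries.

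**Figure D3:**
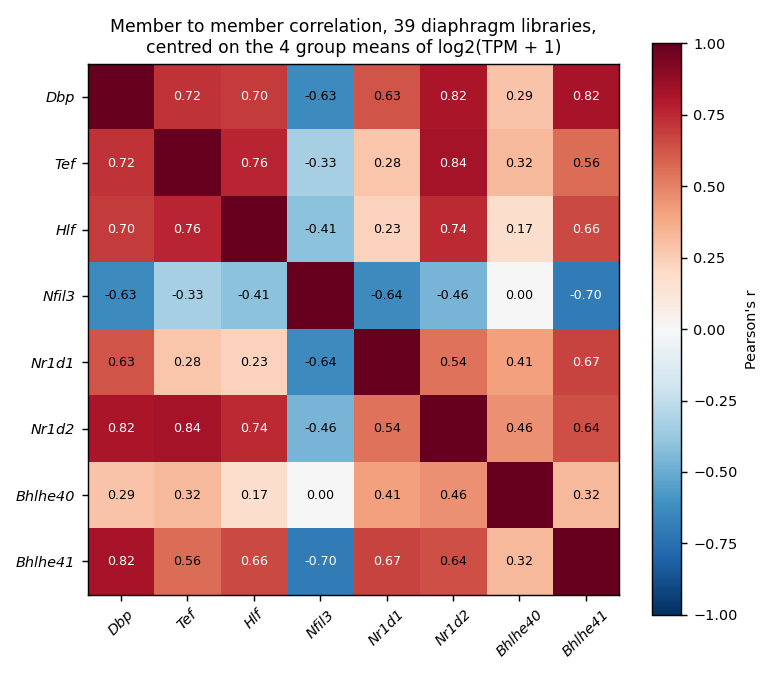
Pearson's r for each pair of the 8 genes over 39 diaphragm libraries after subtracting group means of log2(TPM + 1) (color from -1 to 1, value in each cell). Dbp, Tef, Hlf, Nr1d2 and Bhlhe41 form a block with r of 0.56 to 0.84, Nfil3 is negative with each of them, and Bhlhe40 has no r above 0.46.

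Group by group, 39 relations passed with an adjusted permutation p under 0.05 (28 pairs in each of 4 groups), 14 of them in the group that fell into 2 sets. By Spearman's rho 20 passed, and in the cachectic mock diaphragm 1 passed by rho against 11 by r. No r over the whole non-cachectic rFibcd1 group, the one that fell into 2 sets, is given. In the non-cachectic mock diaphragm, 7 pairs passed. Dbp, Tef, Hlf and Nr1d2 rose and fell together, with r = 0.96 for Dbp and Hlf (exact permutation, adjusted p = 0.00201, rho = 0.97, r = 0.88 without 2 libraries). Of the relations of Nr1d1 with them, that with Hlf passed by r, at -0.79 (exact permutation, adjusted p = 0.0321, rho = -0.73 with adjusted p = 0.0964, r = -0.55 without 2 libraries). For Dbp and Nr1d1 there, which did not pass, r was -0.69 and rho -0.73 (exact permutation, adjusted p = 0.0874 and 0.0964, r = -0.31 without 2 libraries), and library 66 had the lowest Dbp, 66.6 TPM, together with the highest Nr1d1. In the cachectic mock diaphragm, the same pair had r = 0.83 and rho = 0.60 (permutation, adjusted p = 0.0216 and 0.181). That relation rested on 2 libraries, without which r was 0.26, and the 10 positive relations that passed in this group had r of -0.30 to 0.55 without 2 libraries. Nfil3 and Bhlhe41 had r = -0.75 (permutation, adjusted p = 0.0395) and rho = -0.72 (permutation, adjusted p = 0.0844). Without libraries 20 and 34, farthest from the median of Nfil3, r was -0.78, but without libraries 8 and 34 it was -0.35, so this relation rested largely on them too. In the cachectic rFibcd1 diaphragm, 7 pairs passed, the tightest being Hlf and Nr1d2 with r = 0.89 and rho = 0.89 (permutation, adjusted p = 0.00272 and 0.0179) and r = 0.84 without 2 libraries. The difference in sign between groups for Dbp and Nr1d1 was not tested. The plot of Tef and Nr1d1 against Dbp shows the libraries of each group.

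**Figure D4:**
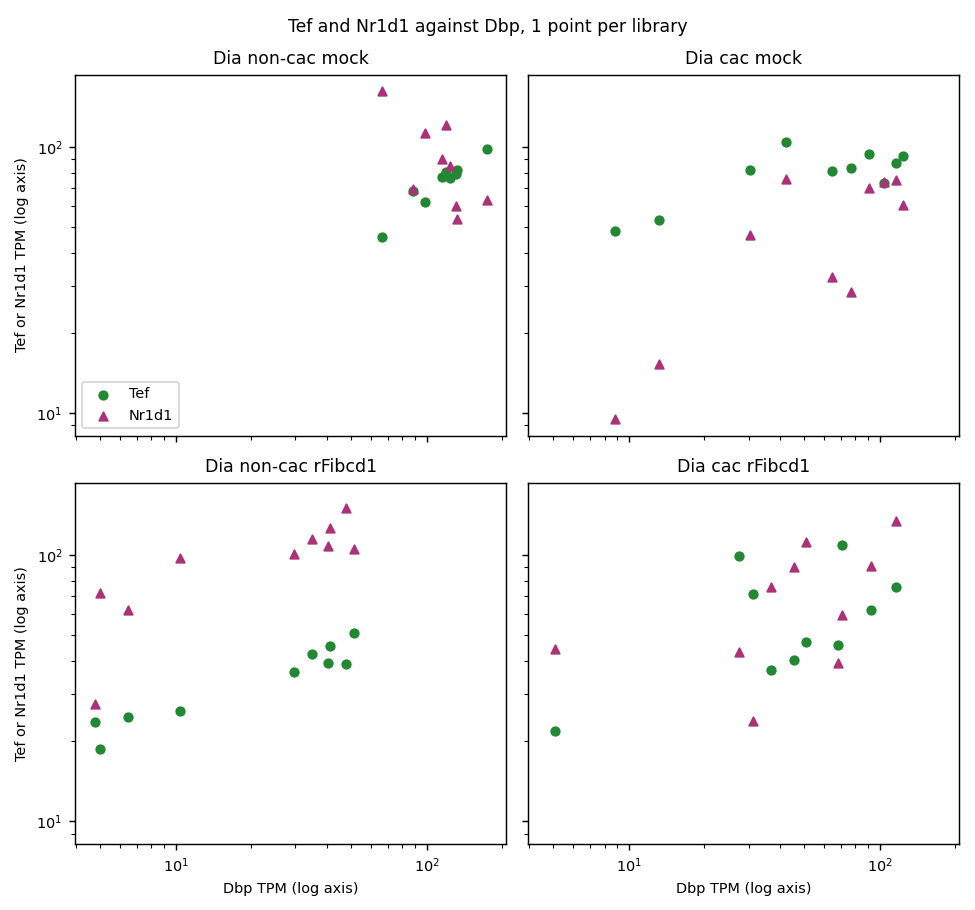
TPM of Tef (circles) and Nr1d1 (triangles) against Dbp TPM (log axes), 1 point per library, in the 4 diaphragm groups. In the non-cachectic mock panel the library with the lowest Dbp (66.6) has the highest Nr1d1 (162.5), and in the cachectic mock panel the 2 libraries lowest in Dbp (8.80 and 13.2) are lowest in Nr1d1 too (9.51 and 15.3).

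Libraries 8 and 34 of the cachectic mock diaphragm, lowest in Dbp, Tef, Nr1d1 and Bhlhe41, were also the highest 2 of their group in Arntl, at 22.2 and 23.5 TPM beside 1.74 to 5.07 in the other 8. Library 8 stood apart in the limb muscles as well. In the TA it had the lowest Dbp and the highest Nfil3 and Arntl (40.9 TPM beside 3.09 to 7.94), and in the soleus the lowest Dbp, at 33.999. Its mitochondrial share was the lowest of its muscle in the TA, 25.1% beside 38.9% to 45.6% in the other cachectic libraries, and in the soleus, 24.1% beside 30.5% to 34.6%, and it was 33.2% in the diaphragm. TA library 8 was also the highest cachectic TA library in summed endothelial (250 TPM, next 154) and macrophage (173, next 119) genes. Soleus library 8 was the highest cachectic one in adipocyte (7382, next 2361) and endothelial (246, next 178) genes. The liver, red cell and B cell sums were highest in other cachectic libraries of both muscles, as was the macrophage sum in the soleus. The part of the mitochondrial share and of these cell types in the values of library 8 was not tested.

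Across 9056 genes with a mean of 5 TPM or more, the genes most like each member over the 39 centered diaphragm libraries were in part the members themselves, a description over libraries that share groups. Per3, a repressor of the clock, led for Tef (r = 0.95), Nr1d2 (0.89) and Hlf (0.87), and was among the top 3 for Dbp and Bhlhe41. Nfil3 was most like Atf4 (0.79), a factor of the amino acid and stress response, followed by Ifrd1 (0.71) and Lrrc30 (0.69), none of them a clock gene. Bhlhe40 was most like 1810013L24Rik (0.74), Mnt (0.74) and Fnip2 (0.72). The gene least like Tef was Arntl (-0.70), and Arntl had r = -0.71 with Dbp, -0.57 with Nr1d2, -0.49 with Hlf and Bhlhe41, and 0.37 with Nfil3. With Nr1d1, which represses Arntl, it had r = -0.13.

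**Figure D5:**
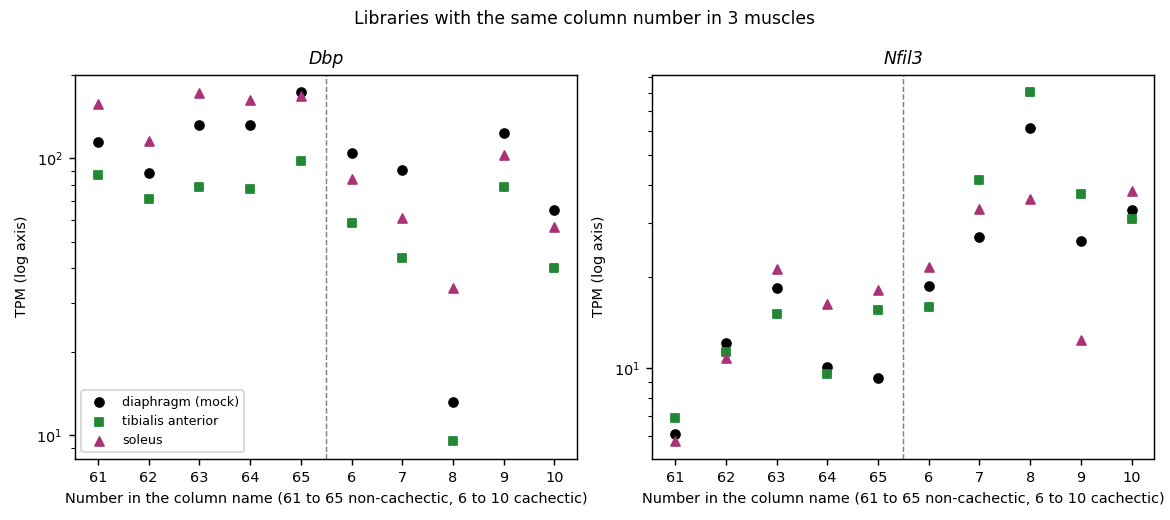
TPM (log axis) of Dbp and Nfil3 in libraries that carry the same column number in mock diaphragm (circles), TA (squares) and soleus (triangles), with 61 to 65 from non-cachectic and 6 to 10 from cachectic mice. Among these numbers, 8 has the lowest Dbp in all 3 muscles (13.2, 9.53 and 33.999 TPM) and the highest TA Nfil3 (80.7).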

How the data were processed

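Muscle RNA-seq of 59 samples was analyzed from 1 deposited table of TPM. Per the study's methods, the authors trimmed and aligned reads to GRCm38 (mm10) with CLC Genomics Workbench, which gave the deposited TPM. The annotation is not given in the sources used here. TPM keeps no depth, so no counting interval was computed and precision rests on the number of samples. The labels call the samples biological replicates without tying each to a mouse, so p-values measure the spread between these samples.

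Values were taken as log2(TPM + 1), which understates changes of low genes. Genes with a TPM of at least 1 in as many samples as the smallest group were tested with limma 3.58.1 (R 4.3.3, eBayes with a trend, two-sided, Benjamini-Hochberg over all genes, calls at an adjusted p under 0.05), in a fit of 4 diaphragm groups, separate TA and soleus fits, and a fit of the 6 groups without rFibcd1. All 8 genes passed the filter in each. The rank tests of the study's methods (Kruskal-Wallis with Dunn) were kept as an alternative, because limma also gives an SE and contrasts. Correlations used permutation within groups, exact for 9 samples and 100000 resamples otherwise, adjusted over all relations within groups and over 28 pairs after centering. Scripts were tested on simulated data. The 8 genes and all lists were chosen with earlier results of these data known. Named genes were the 8, the listed clock, glucocorticoid and marker genes, overlap partners, and the 3 most and 1 least similar genes by r. Alternatives were another pseudocount, filters, scaling, array weights, Dunn test, 2-group fits, library state and leaving out libraries.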

Additional observations from a re-analysis of the deposited data

Results flagged for a closer look

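Among the 64 combinations of gene and group, 3 held a library far from the rest of its group by Dixon's ratio on log2(TPM + 1), and chance flags about 1 in 20. In the cachectic rFibcd1 diaphragm, library 17 had a Dbp of 5.10 TPM, with the next library at 27.4. In the non-cachectic soleus, library 62 had a Dbp of 115 TPM, with the next at 157. In the non-cachectic rFibcd1 diaphragm, library 47 had an Nr1d1 of 27.5 TPM, with the next at 62.2. Library 17 also had the lowest Tef and Hlf and the highest Arntl (32.6 TPM) of its group, and library 62 was the lowest of its group in Tef, Hlf and Bhlhe41 as well.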

How the results depend on the processing

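Of the alternative values of single genes, 835 kept direction and side of the threshold, 30 gained and 36 lost a call, 55 changed sign without a call in either, and 3 reversed. The reversals came with median-ratio scaling, which removes the median shift of all genes: Bhlhe40 in the TA at -0.19, and between non-cachectic TA and soleus Hlf at 0.033 and Nr1d2 at 0.59. Counts of the 8 genes called stayed within 1.5 times under 97 alternatives and moved further under 23, and counts of correlated pairs by r stayed within it under all 6, while rho gave 20 within groups against 39 by r. For the cachectic melanoma in the mock diaphragm the count was 3, and 0 in high-state libraries alone. In the rFibcd1 diaphragm it was 1, and 0 with median-ratio scaling, array weights, the Dunn test, the fit of 2 groups or high-state libraries alone, and 0 to 2 leaving out single libraries. For rFibcd1 in the non-cachectic diaphragm it was 4, against 2 with the Dunn test and 0 in high-state libraries alone, and for the interaction 0, against 2 with array weights. It was 4 in the TA (2 with no filter, 2 to 6 leaving out single libraries) and 5 in the soleus (2 with the Dunn test). For the difference of TA and soleus in the melanoma response it was 0, against 2 with the column number as a block. Between non-cachectic diaphragm and soleus it was 2, against 0 with scaling, 1 with the Dunn test and 0 to 2 leaving out single libraries. Between non-cachectic TA and soleus it was 1, against 3 with scaling, 4 with array weights, 0 with the Dunn test, 3 with the column number as a block and 0 to 1 leaving out single libraries. Fits on fewer libraries have fewer samples by construction, and otherwise the cause was not tested.

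No paired analysis was possible on the labels' replicate numbers because the columns of the table could not be tied to them. The fits with the column number as a block, with high-state libraries alone, without diaphragm libraries 8 and 34 and without the non-cachectic rFibcd1 group, and the values of other clock genes with single libraries left out, were chosen after seeing the data. The TPM keep no depth, so the precision of low genes such as Hlf is unknown beyond the spread between libraries.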

Other observations

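The same 10 column numbers (6 to 10 and 61 to 65) occurred in mock diaphragm, TA and soleus. Each gene was compared between libraries of the same number after centering on group means, a comparison chosen after the data were seen. Of 24 relations (8 genes, 3 pairs of muscles), 22 were positive and 3 passed by Pearson's r, all for Dbp. Between diaphragm and TA, Dbp had r = 0.98 (permutation within groups, adjusted p = 0.00564, n = 10), rho = 0.87 (adjusted permutation p = 0.095) and r = 0.87 without the 2 numbers farthest from the median. Between diaphragm and soleus the values were r = 0.91 (adjusted permutation p = 0.00564), rho = 0.82 (adjusted permutation p = 0.095) and r = 0.76 without 2 numbers. Between TA and soleus they were r = 0.92 (adjusted permutation p = 0.0116), rho = 0.76 (adjusted permutation p = 0.095) and r = 0.72 without 2 numbers. No relation passed by rho. Nfil3 had r = 0.83 between diaphragm and TA (adjusted permutation p = 0.052), rho = 0.60 (adjusted permutation p = 0.252) and r = 0.69 without 2 numbers.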
